A study of Mus musculus with 9 samples.

Results

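The integrated stress response genes described here are 30 genes of mouse brown fat, taken by symbol from a list of ATF4 targets, serine and one-carbon enzymes and the hormones Fgf21 and Gdf15, with no expression value in the rule. All 30 were found among the 55416 genes of the count table. The series concerns Cas9-expressing C57BL/6J mice of 8 to 10 weeks whose interscapular brown adipose tissue (BAT) was injected with an AAV8 vector, an adeno-associated virus, with either the UCP1 sgRNA (a guide RNA against Ucp1) or the Control sgRNA. The mice were housed at 22 °C for 14 days before RNA was taken. The labels list 5 control-guide and 4 Ucp1-guide samples. Cas9 and the AAV8 injection were thus common to both groups, and the labels do not name the promoter that drives Cas9. The 9 columns of counts are named by a number and the letters BAT, and the numbers match no label. No library was therefore given to a guide, by name, order or value, and no comparison of the guides was made. The libraries are called A to I, in rising order of the number in the column name, and each value below is a level in 1 library of a set that mixes both guides.

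The integrated stress response is the pathway by which cells short of amino acids, or with stress in the endoplasmic reticulum or mitochondria, slow general protein synthesis through phosphorylation of the initiation factor eIF2 while translating the transcription factor ATF4. ATF4, with partners of the C/EBP family, raises genes for amino acid uptake, amino acid synthesis and redox balance. In brown fat and muscle, stress of mitochondria is known to act through this pathway and to raise the hormones FGF21 and GDF15. Since ATF4 is controlled largely at translation, the level of its mRNA is not a measure of its protein.

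ATF4 and C/EBP partners bind a composite site, the C/EBP-ATF response element, whose core is written TGATGNAA. The core was searched on both strands of the promoters that RefSeq places from 250 bases before to 50 bases after the gene start (build GRCm38.p6). It was present in 10 of the 27 members with a promoter in that table (37.0%), against 1219 of 27025 genes (4.51%). The members were drawn in part from a list of ATF4 targets, so these shares do not test for an excess of the core. A match is a description of these letters and not a site shown to be bound. Of the 10 members, Asns, Atf3, Chac1, Fgf21, Trib3 and Slc7a11, which has 2 matches close together, are shown. The matches of Nupr1, Pck2, Pycr1 and Vldlr are not shown. Sequences run 5′ to 3′ along the gene strand, with the 8 bases of the core, or its reverse complement, in capitals.
Asns, chr6:7693215-7693242, minus strand: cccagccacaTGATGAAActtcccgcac
Atf3, chr1:191183426-191183453, minus strand: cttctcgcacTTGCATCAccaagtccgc
Chac1, chr2:119351039-119351066, plus strand: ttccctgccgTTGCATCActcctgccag
Fgf21, chr7:45615612-45615639, minus strand: gacccccccaTTGCATCAtccgtccagg
Trib3, chr2:152344029-152344056, minus strand: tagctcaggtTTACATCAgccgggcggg
Slc7a11, first match, chr3:50443662-50443689, minus strand: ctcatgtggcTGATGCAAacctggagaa
Slc7a11, second match, chr3:50443643-50443670, minus strand: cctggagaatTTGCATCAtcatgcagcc
The core started 23 bases before the gene start in Asns, 110 in Atf3, 193 in Chac1 and 139 in Fgf21, and 14 bases after the start position in Trib3. The matches of Atf3, Chac1 and Fgf21 are the same 8 bases, as are those of Nupr1 and Vldlr and the second match of Slc7a11.

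Libraries held between 15460829 and 17909534 counted reads. Values are CPM, the counts of a gene scaled to the column sum of its library, and 26 of the 30 members had a mean of at least 1 CPM over the 9 libraries, as did 12260 genes in all. Transcripts of the mitochondrial genome took from 22.3% of the reads in library A to 33.9% in library F, which moves every CPM. Brown adipocyte markers were present in every library, with a summed level of 6413 to 10397 CPM over 12 genes. The 12 include Ucp1, the target of the guide, which alone ran from 396 to 4620 CPM. Markers of skeletal muscle summed to between 310.0 CPM in library C and 4898 CPM in library F, so the libraries differ in the amount of muscle RNA. In bulk tissue, fewer cells of a type and less RNA per cell cannot be told apart. Nothing in the labels says whether the libraries come from separate animals.

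Among the transcription factors, Atf4 mRNA was high in a pair of libraries. It stood at 111 CPM in library A, 81.2 in library B, 117 in library C, 108 in library D, 296 in library E, 98.5 in library F, 207 in library G, 86.2 in library H and 87.7 in library I. The 7 libraries other than E and G lay between 81.2 and 117 CPM. Atf5, a relative of Atf4 that takes part in the mitochondrial stress response, had a different order of libraries. Its level was 887 CPM in library A, 723 in library E, 698 in library G and 549 in library H, and between 159 and 250 CPM in the other 5. Libraries A and H were thus among the 4 highest for Atf5 while lying within the narrow range of the 7 for Atf4.

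Atf3, an early transcription factor of the stress response, and Ddit3, which encodes CHOP, were both highest in library E. Atf3 was at 14.96 CPM there and between 0.658 CPM (library B) and 5.44 CPM (library D) elsewhere, with a median of 2.87 CPM over the 9 libraries. Ddit3 was at 32.8 CPM in library E, at 17.95 CPM in library C, the next highest, and at 8.06 CPM in library I, the lowest. These 2 genes did not share the order of Atf5: library A, the highest for Atf5, held the second lowest Atf3 value at 0.790 CPM. The symbol Ddit3 has 2 records in the annotation, of which ENSMUSG00000025408 holds all 2240 reads and ENSMUSG00000116429 holds 0.

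The C/EBP partners and Nupr1 had narrower ranges. Cebpb, whose product pairs with ATF4, ranged from 267 CPM in library D to 524 CPM in library C, and stood at 273 CPM in library E, the second lowest value. Cebpg, which encodes another partner of ATF4, ranged from 54.7 CPM in library D to 88.4 CPM in library H. Nupr1, a small stress-induced nuclear protein, was highest in library C at 34.8 CPM and lay between 16.7 and 24.1 CPM in the others. None of these 3 was highest in library E.

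The secreted factors were low in most libraries and raised in a few. Fgf21 was at 18.1 CPM in library E (324 reads), 3.77 in library G, 1.86 in library A and 1.63 in library H. In library C it was at 0.619 CPM, in library I at 0.243, in library D at 0.234, in library F at 0.194 and in library B at 0.0598 CPM, which is 1 read. The exact Poisson 95% interval, which covers counting error only, ran from 16.2 to 20.2 CPM in library E and from 2.91 to 4.81 CPM in library G, so the 2 highest libraries are apart beyond counting error. Gdf15 was at 10.2 CPM in library G and 7.37 CPM in library E, followed by 3.102 CPM in library A and 2.14 CPM in library H. Its intervals in libraries G (8.71 to 11.8 CPM) and E (6.17 to 8.74 CPM) overlapped, so the order of these 2 is less certain than for Fgf21. The other 5 libraries held between 0.364 and 0.760 CPM of Gdf15, which is 6 to 13 reads each. FGF21 acts on metabolism at a distance and GDF15 on appetite through the hindbrain, and both mRNAs were above 1 CPM in the same 4 libraries only.

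Brakes and stress regulators, apart from Ddit4, were highest in library E. Trib3, a pseudokinase that restrains ATF4 and CHOP, was at 55.3 CPM there, at 19.9 in library A, 16.7 in library G and 7.54 in library H. The remaining 5 libraries held it between 4.33 and 5.62 CPM. Chac1, an enzyme that breaks down glutathione, was at 12.8 CPM in library E and between 0.585 and 4.91 CPM elsewhere, and its second highest library was library I. Ppp1r15a, which encodes GADD34, the phosphatase subunit that restores eIF2, was at 45.6 CPM in library E and between 12.1 and 23.1 CPM elsewhere. Sesn2, a leucine sensor of the mTORC1 pathway, ran from 23.1 CPM in library H through a median of 36.1 CPM to 87.9 CPM in library E. Ddit4, an inhibitor of mTORC1 that also answers to glucocorticoids and low oxygen, went another way, with 39.2 CPM in library I, 15.1 CPM in library E and 7.89 CPM in library D.

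**Figure D1:**
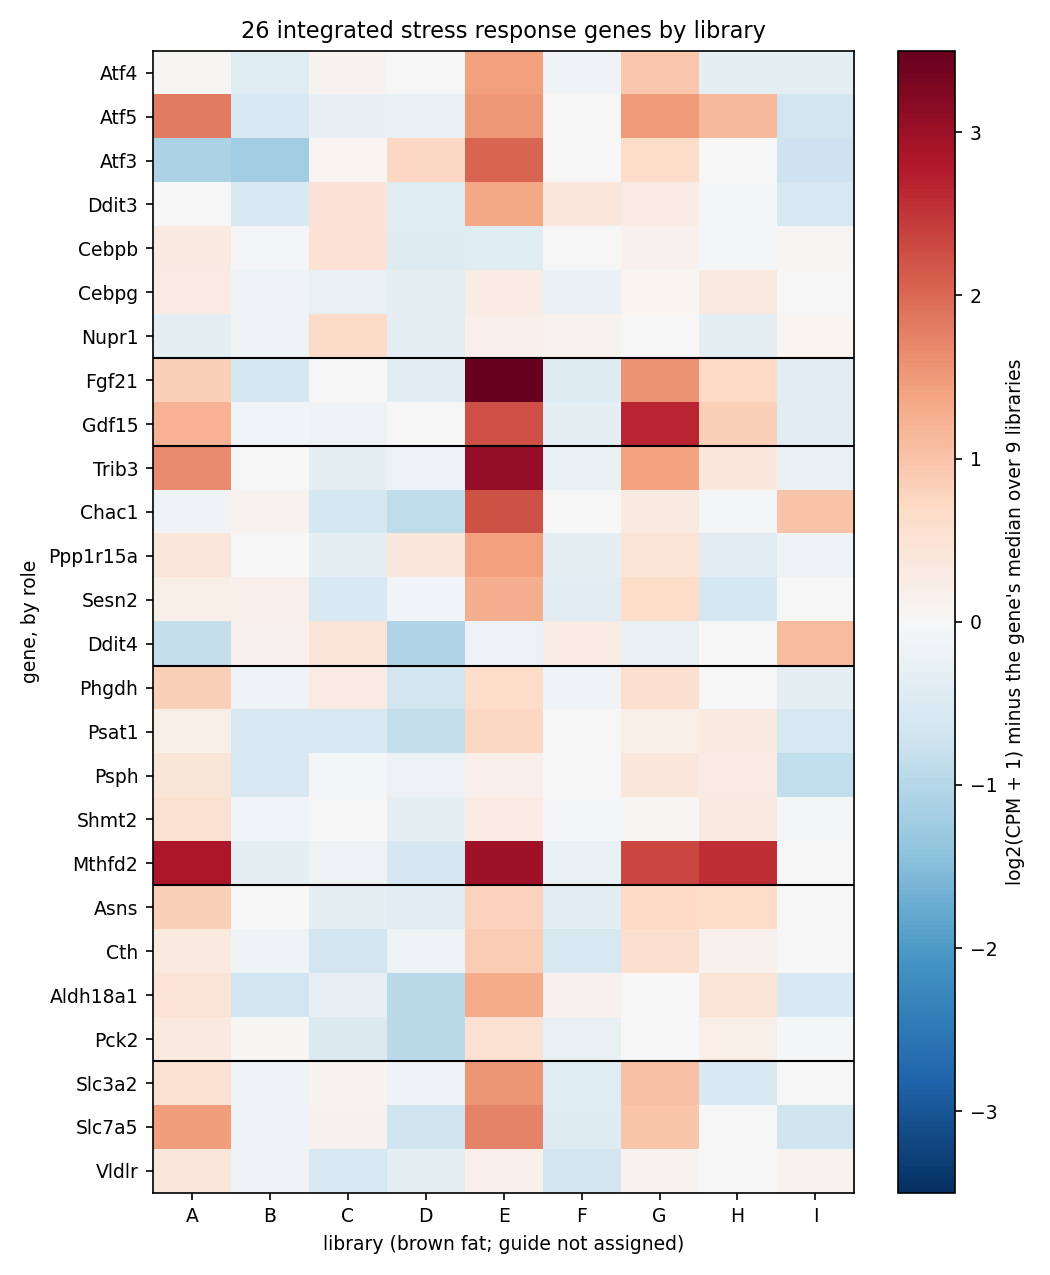
Each cell gives log2(CPM + 1) of a gene in 1 library minus the gene's median over the 9 libraries, for the 26 members with a mean of at least 1 CPM, with black lines between the roles. The column of library E is above the median for most genes, and the row of Mthfd2 is high in libraries A, E, G and H, where it held 11.5 to 18.3 CPM.

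Of the serine and one-carbon genes, Mthfd2 had the widest range. MTHFD2, a mitochondrial folate enzyme that is usually low in adult tissue, had mRNA at 18.3 CPM in library E, 16.4 in library A, 13.6 in library H and 11.5 in library G. In the other 5 libraries it was at 1.46 CPM in library I, 1.18 in library C, 1.03 in library F, 0.957 in library B and 0.643 in library D. No library lay between 1.46 and 11.5 CPM. Phgdh, the first enzyme of serine synthesis, was highest in library A at 10.8 CPM, followed by 9.38 in library E, 8.83 in library G and 7.06 in library C, with the lowest value, 3.22 CPM, in library D. Its other 4 libraries lay between 4.24 and 5.62 CPM, so the values ran on without a break. Psat1, the second enzyme, was at 8.93 CPM in library E, 6.52 in library H, 6.10 in library G and 6.03 in library A. In library F Psat1 was at 5.05 CPM and in the last 4 libraries it was between 2.40 and 3.11 CPM.

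The last step of serine synthesis, Psph, ranged from 13.1 CPM in library I to 33.7 CPM in library A, and the mitochondrial serine hydroxymethyltransferase Shmt2 from 15.4 CPM in library D to 28.5 CPM in library A. Neither of these was highest in library E. The 2 remaining mitochondrial folate genes were close to the limit of detection, Mthfd1l with 56 reads and Aldh1l2 with 44 reads over all 9 libraries. Mthfd1l was highest in library B, at 1.196 CPM, and Aldh1l2 in library F, at 0.453 CPM, neither of which was high for Mthfd2.

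The other amino acid enzymes shared some of this order. Asns, asparagine synthetase, a long-studied ATF4 target, was at 121 CPM in library A, 119 in library E, 109 in library G and 104 in library H. It was at 67.1 CPM in library I, 67.0 in library B, 53.4 in library C, 51.5 in library D and 51.1 in library F. The gap below the 4 highest libraries was thus wider than the range on either side of it. Cth, which makes cysteine from cystathionine, ranged from 2.48 CPM in library C to 9.21 CPM in library E. Aldh18a1, the first enzyme of proline synthesis, was at 7.26 CPM in library E and between 0.760 and 3.72 CPM in the others. Pck2, the mitochondrial form of phosphoenolpyruvate carboxykinase, ranged from 7.13 CPM in library D to 21.4 CPM in library E. Pycr1, a later enzyme of proline synthesis, had 70 reads in all 9 libraries.

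Transport of large neutral amino acids and cystine runs through heterodimers that share the heavy chain SLC3A2. Slc3a2 was at 249 CPM in library E, 171 in library G and 122 in library A, and between 57.6 CPM (library H) and 89.7 CPM (library C) in the other 6. Its light chain for leucine, Slc7a5, was at 5.30 CPM in library E, 4.23 in library A and 2.73 in library G, and lowest in library D at 0.175 CPM, which is 3 reads. Slc7a11, the cystine light chain, had 52 reads in total, with 0 reads in libraries B, D and I. A count of 0 allows up to 3 reads, or 0.182 CPM in library I, and its highest value was 1.34 CPM in library E. Vldlr, the very-low-density lipoprotein receptor, was at 141 CPM in library F, 224 CPM at the median and 294 CPM in library A.

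**Figure D2:**
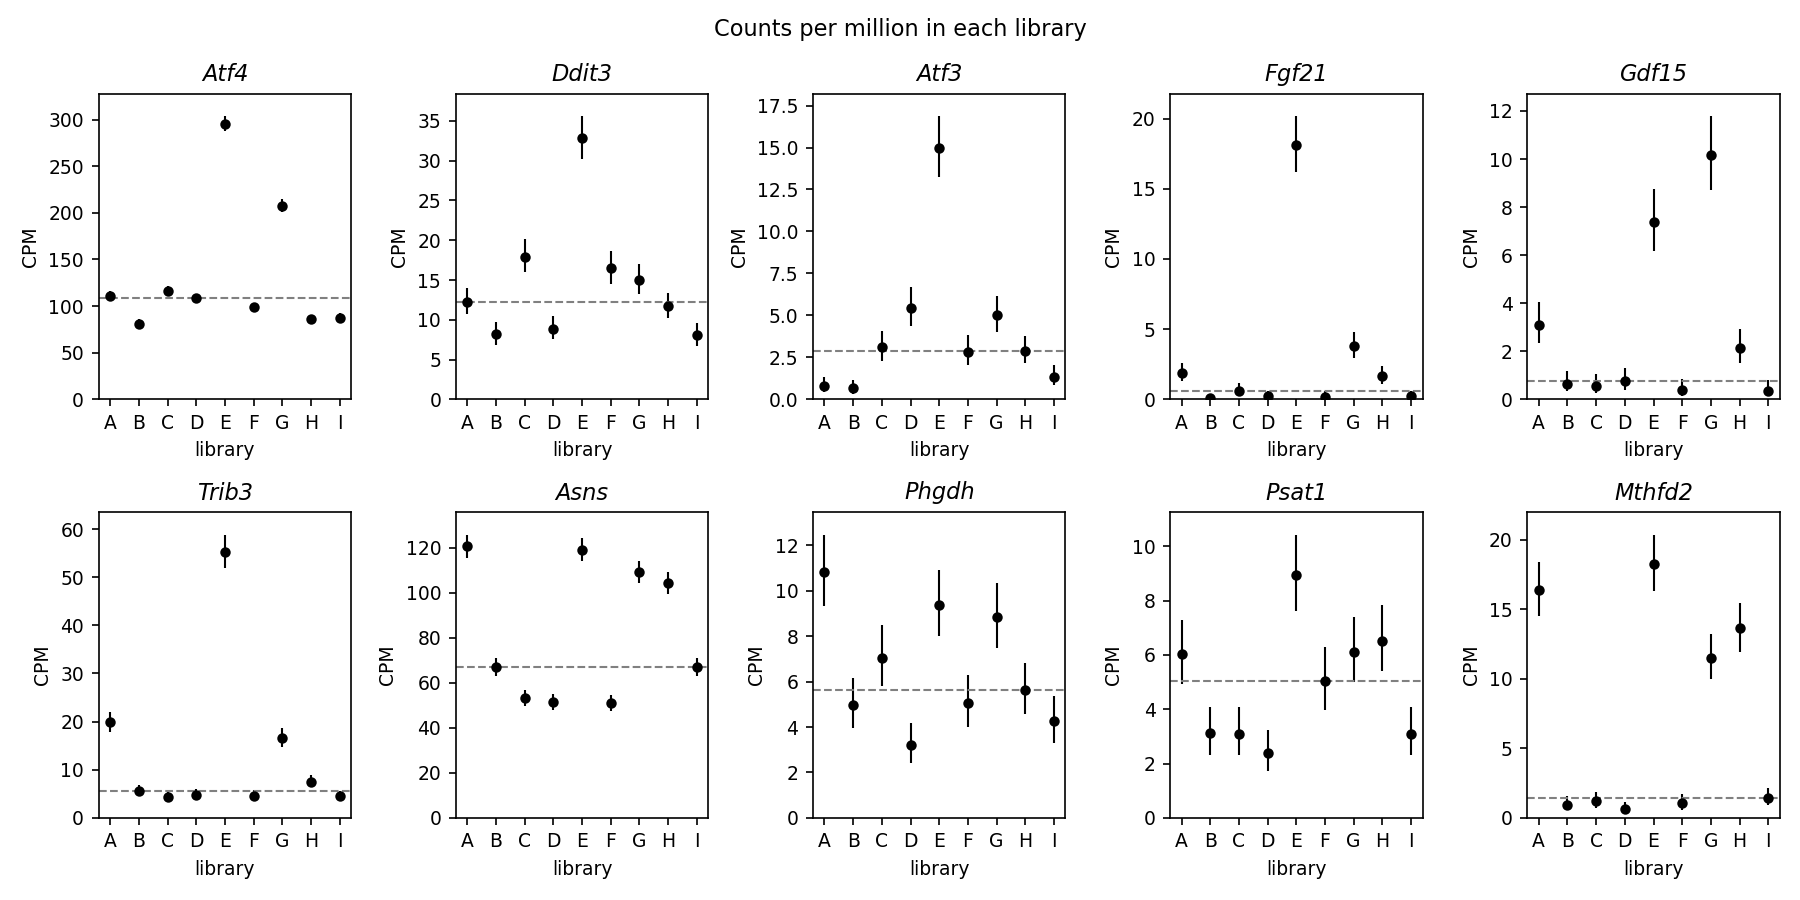
Points give the CPM of 10 genes in each library, bars the exact Poisson 95% interval of the read count, which covers counting error only, and the dashed line the median of the 9 libraries. Asns and Mthfd2 have 4 high libraries, Atf4 has 2, and Atf3, Ddit3, Fgf21 and Trib3 have 1 library, library E, far above the others.

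Levels of different genes were compared per kilobase of exon (GENCODE M21 exon lengths). Cebpb had the highest median, 244 CPM per kb, followed by Atf5 at 125 CPM per kb, but the order of these 2 differed between libraries. Atf5 was above Cebpb in library A (445 against 302 CPM per kb), library E (363 against 182), library G (350.0 against 271) and library H (276 against 232), and below it in the other 5. The Atf5 range, 79.9 to 445 CPM per kb, also overlapped that of Atf4, whose median was 46.0 CPM per kb. Asns, Slc3a2 and Vldlr followed with medians of 24.5, 23.8 and 22.3 CPM per kb, and their ranges over libraries overlapped. Fgf21 and Mthfd2 had medians of 0.651 and 0.417 CPM per kb, but 19.0 and 5.24 CPM per kb in library E, their highest library. On this scale Fgf21 in library E was close to the lowest Asns value, 18.7 CPM per kb.

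Most of these genes varied widely between libraries. The highest CPM was at least 2-fold above the lowest in 23 of the 26 members tested, where 32.3% of all 12260 genes tested were as wide. The median ratio was 3.78 over the 26 members and 1.70 over all genes tested. For this ratio a lowest value under 3 reads was set to 3 reads, which applied to Fgf21 among the members tested. The 3 widest members were Fgf21, Slc7a5 and Mthfd2, and the ratio for Mthfd2 was 28.4, close to 27.9 for Gdf15. Gdf15 was wider than Mthfd2 under each of the 3 other scalings and without library D, where Mthfd2 was at 19.1. Without library E the ratio of Fgf21 was 21.0, below those of Gdf15, Mthfd2 and Slc7a5. The 3 narrowest were Cebpg at 1.61, Shmt2 at 1.85 and Cebpb at 1.96, the only members tested that stayed under 2. By role, the ratio reached 2 in 5 of 7 transcription factors, both secreted factors and all 5 brakes and stress regulators. It did so in 4 of 5 tested serine and one-carbon enzymes, all 4 tested other amino acid enzymes and all 3 tested transporters and receptors. Wide ratios of low genes such as Slc7a5 hold counting error as well as differences between libraries. The medians of Fgf21, Slc7a5 and Gdf15, at 0.619, 0.900 and 0.760 CPM, were under 1 CPM. These 3 genes passed the filter on the mean through their higher libraries, so the filter itself favours wide ratios among low genes. The counts and correlations of members below hold the same limit.

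**Figure D3:**
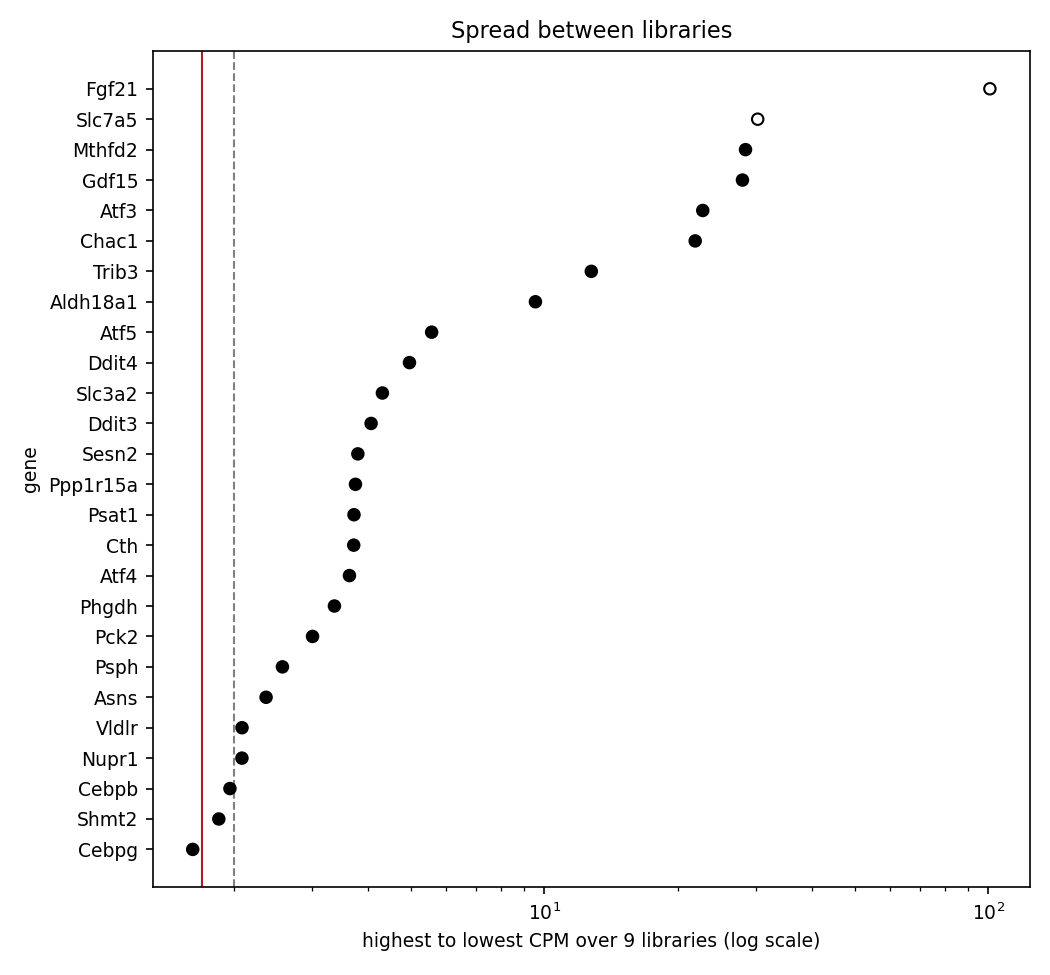
Points give the ratio of the highest to the lowest CPM over the 9 libraries for the 26 members tested, on a log axis, and open points are members whose lowest library had 3 reads or fewer. The dashed line marks a ratio of 2 and the red line the median of all genes tested, 1.70. All but Cebpg, Shmt2 and Cebpb lie to the right of the dashed line.

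A single library, library E, was the highest for 15 of the 26 members, where it was the highest for 11.8% of all genes tested. Library A was the highest for 6 of the 26 members (17.3% of all genes) and library C for 2 (9.5%). At the other end, library D was the lowest library for 11 of the 26 members, where it was the lowest for 22.1% of all genes. Library E was the lowest for 0 of the 26, and for 7.99% of all genes. In 7 members library E lay far above the next library by Dixon's ratio, which marked 8 of the 26 members and 6.68% of all genes tested. Summed brown adipocyte markers were second lowest in library E, at 6434 CPM against 6413 CPM in library H, the lowest. The sum holds Ucp1, at 396 CPM in library E and 4620 CPM in library C. The libraries lowest in the sum, A, E, G and H, are those lowest for Ucp1. The sum thus does not give brown adipocyte content apart from that gene. Within that list library E was the lowest for Ucp1, Cox7a1 and Cox8b, and the highest for Ppargc1a, at 392 CPM over a median of 92.8 CPM, and for Dio2 and Pparg. The part of these differences in the members' levels was not tested. Summed muscle markers of library E, 1290 CPM, were the median of the 9 libraries, and its summed immune markers, at 91.4 CPM, lay under the highest value of 196 CPM in library H. Its summed endothelial markers were 406 CPM in a range of 391 to 614 CPM, and its fibroblast markers 256 CPM in a range of 139 to 332 CPM. Without library E the ratio reached 2 in 22 of the 26 members, and the share of all genes was not taken in that setting.

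**Figure D4:**
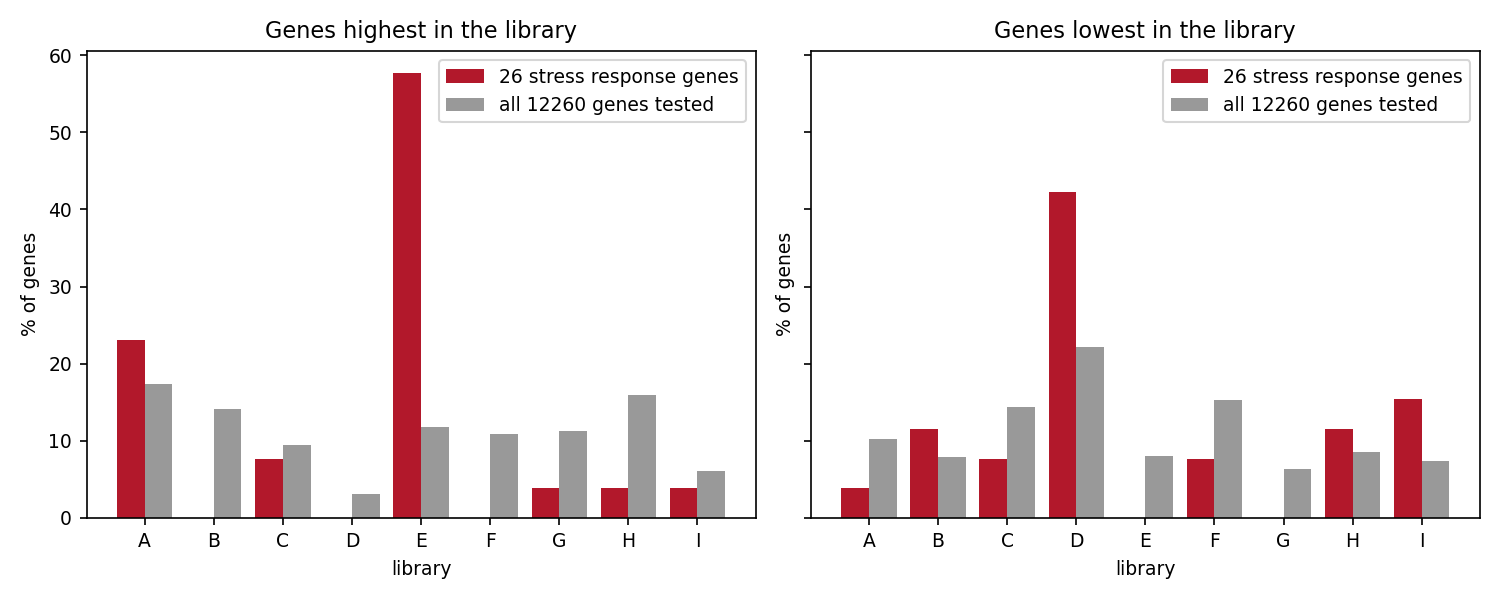
Bars give the percentage of genes that are highest (left) or lowest (right) in each library, in red for the 26 members tested and in grey for all 12260 genes tested. The red bar of library E on the left, 15 of 26 members, stands above its grey bar of 11.8%, and library E has no red bar on the right.

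Whether the members rise and fall together was described by Pearson's r of log2(CPM + 1) over the 9 libraries. A gene whose values fall into separate clusters has no meaningful pooled r, and 4 members, Atf4, Atf5, Asns and Mthfd2, were left out for this reason (7.23% of all genes tested fell into such clusters). The rule was that the widest gap, with at least 2 libraries on each side, exceeds the range on either side. Members kept by this rule can still share that order. Libraries A, E, G and H were the highest for Fgf21, Gdf15, Trib3 and others, as for Asns. Over the 231 pairs of the other 22 members the median r was 0.55, against 0.06 over all pairs of the 11374 genes tested that passed the same rule. Among the member pairs, 72 of 231 (31.2%) had an r of at least 0.7, where 4.55% of all pairs did. With mitochondrial transcripts left out of the column sum, 19.5% of the 210 pairs then without clusters reached 0.7, against 4.08% of all pairs. Without library E the median over the same 231 pairs was 0.39 and 45 of them (19.5%) reached 0.7, against 5.64% of all pairs. The libraries mix both guides, so a relation within a guide and a difference between guides cannot be told apart in any of these values. Pairs also share the libraries and their scaling, including the share of mitochondrial reads.

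Psat1 and Aldh18a1 had the highest r, 0.95 (exact two-sided permutation p = 0.000163), with Spearman's rho of 0.87 (exact p = 0.00451) and an r of 0.91 without libraries D and E, the 2 libraries farthest from the Psat1 median. For Phgdh and Slc7a5 the r was 0.94 (exact p = 6.06e-05), rho was 0.97 (exact p = 0.000165) and r was 0.96 without library E. Fgf21 and Trib3 also had an r of 0.95, but a rho of 0.67 (exact p = 0.0589) and an r of 0.79 without libraries E and G. Trib3 was a partner in 4 of the 10 closest pairs, with Fgf21, Slc7a5, Cth and Slc3a2. With Slc3a2 its rho was 0.45 (exact permutation p = 0.230), so that pair, like the one with Fgf21, was weaker by rank. Besides these and the 2 pairs described first, the 10 held Sesn2 with Ppp1r15a, Sesn2 with Slc3a2, Slc3a2 with Ppp1r15a, and Shmt2 with Cebpg at an r of 0.89.

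These 10 pairs were picked as the highest of 231 by r, so their low unadjusted p follow from that choice. The unadjusted exact p was under 0.05 in all 10 by r and in 8 of them by rho. Benjamini-Hochberg adjustment of the exact permutation test ran over the other genes tested without clusters, against each member of a pair in turn. The adjusted p of a pair is the larger of its 2 values. By that value none of the 10 passed 0.05, with adjusted p from 0.0924 to 0.618. The pair of Trib3 and Cth, with an adjusted p of 0.106, passed against Cth but not against Trib3. In those tests, which also covered the members of the 3 lowest pairs, 0.044% of all gene and member combinations passed. Of the 80 that passed, 69 were with Cth. Leaving out library E left the 10 pairs at an r of 0.74 to 0.96. Leaving out the 2 libraries farthest from the median of the first gene gave 0.60 to 0.95, the lowest for Sesn2 and Slc3a2.

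Over all 9 libraries, Ddit4, Cebpb and Nupr1 had the lowest median r with the remaining members, at -0.22, -0.08 and -0.04, whereas it was 0.72 for Psat1, Trib3 and Fgf21. Without library E it was -0.21 for Ddit4 and -0.19 for Nupr1 but 0.30 for Cebpb, so the low place of Cebpb rests on that library. The lowest pairwise r were -0.60 for Psph and Ddit4 (exact permutation p = 0.0864, adjusted p = 0.858), -0.54 for Atf3 and Cebpb (exact p = 0.135) and -0.50 for Cebpb and Ppp1r15a (exact p = 0.169), and none of these passed the test. The r of Psph and Ddit4 was -0.10 without libraries B and I, the 2 farthest from the Psph median. Without library E it was -0.28 for Atf3 and Cebpb and -0.17 for Cebpb and Ppp1r15a. Atf3 had a median r of 0.42 with the others, which was -0.12 without library E, so its likeness to them rests on that library. Chac1 and Ppp1r15a went from 0.51 and 0.53 to 0.13 and 0.12 in the same way, while Trib3 kept 0.69 and Phgdh 0.60.

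**Figure D5:**
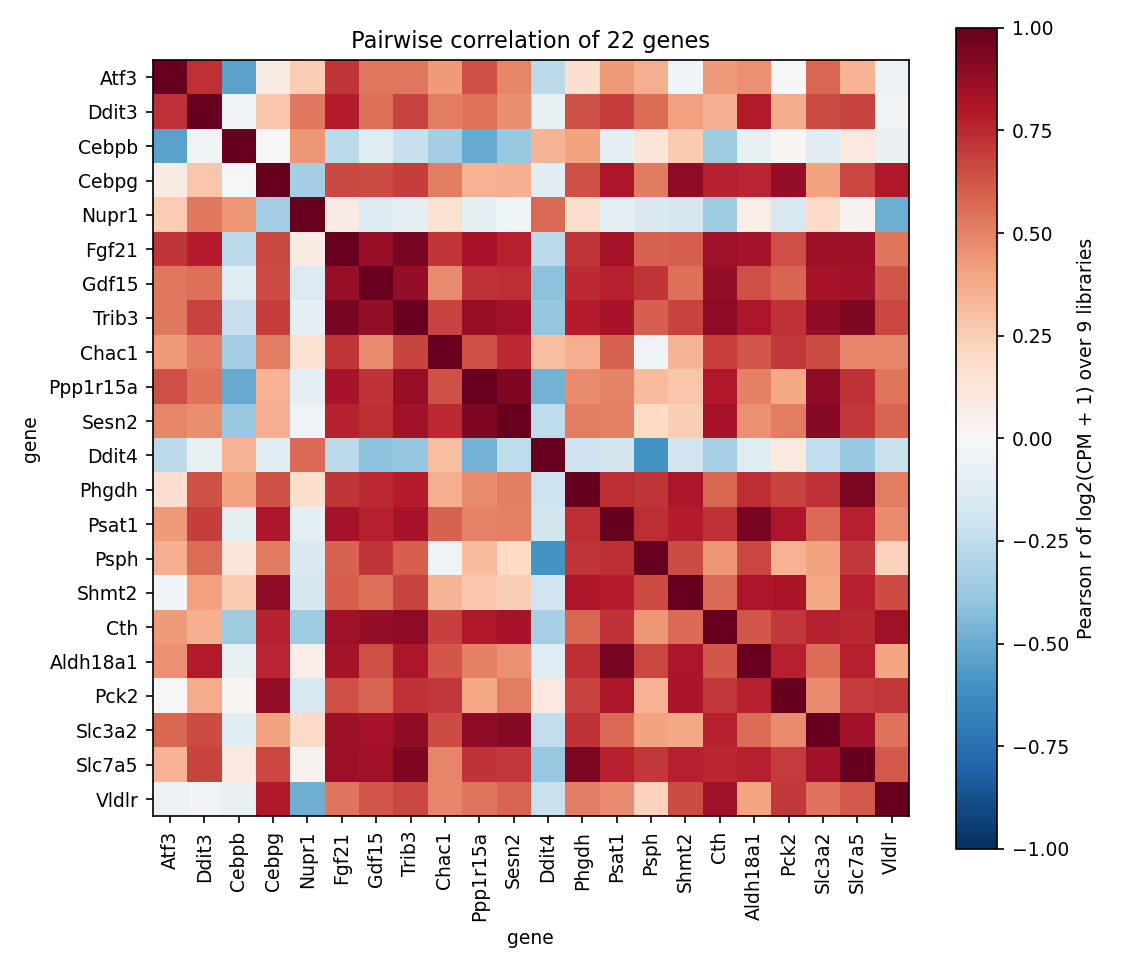
Colours give Pearson's r of log2(CPM + 1) over the 9 libraries for each pair of the 22 members whose values do not fall into clusters, in the order of their roles. The rows of Ddit4, Cebpb and Nupr1 hold most of the blue and pale cells, and the block of Fgf21, Gdf15 and Trib3 is red, with r of 0.87 to 0.95.

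A correlation with Ucp1, which encodes the uncoupling protein of brown fat mitochondria and is the target of the guide, is not given. Its level ran from 396 CPM in library E to 4620 CPM in library C, and the 9 values form 2 separate sets of 4 and 5 libraries with none between 606 and 2704 CPM. Atf5, Asns and Mthfd2 fell into the same 2 sets of libraries, in the opposite direction, as did 0.693% of all genes tested in either direction. Libraries A, E, G and H were also the 4 highest for Fgf21, Gdf15, Trib3, Psat1, Psph, Shmt2, Cth and Cebpg. The values of these genes did not pass the gap rule. The share of all genes with that order was not taken. Neither of the 2 Ucp1 sets holds the 6 libraries that a correlation within it would need. Correlation with Atf4 is likewise not given, since libraries E and G stand apart from the other 7 in its level.

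Genes that act upstream of ATF4 are listed beside its targets. Of 15 genes for the eIF2 kinases, the subunits of eIF2 and its exchange factor eIF2B, the constitutive phosphatase subunit and the mitochondrial relay OMA1 and DELE1, 1 reached a ratio of 2 between libraries, where 32.3% of all genes tested did: Ppp1r15b, from 115 CPM in library C to 232 CPM in library E. Dele1, whose product carries the mitochondrial stress signal to the cytosol, ranged from 58.8 to 67.8 CPM, and Eif2ak1, the kinase it activates, from 52.5 to 66.8 CPM. The summed level of the 15 genes, Ppp1r15b included, was 690 CPM in library E, 671 in library G, 620 in library A and 586 in library H. It was between 514 and 575 CPM in the other 5. Library A or E was the highest for 7 of the 15, against 29.1% of all genes tested. Cytosolic aminoacyl-tRNA synthetases and the tRNA exporter Xpot, many of which are ATF4 targets, reached a ratio of 2 in 6 of 14 genes. Their summed level was 1155 CPM in library A, 1096 in library E, 997 in library H and 992 in library G, and between 630 and 711 CPM in the other 5. Examples are Aars1, from 70.2 CPM in library D to 149 CPM in library A, and Cars1, from 11.0 CPM in library D to 28.1 CPM in library E. For 12 of these 14 genes the highest library was library A or E, as it was for 29.1% of all genes tested.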

How the data were processed

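RNA from interscapular brown fat was sequenced, and the deposited table holds the authors' whole-number counts per Ensembl gene in 9 columns. FastQC, STAR, DESeq2 and GRCm39 are named, per the submitters' processing notes, without versions or roles. Which annotation, strand setting and counting mode were used is not given in the sources used here. Column names show the tissue but no guide, so the 9 libraries were lettered A to I and treated as 1 group of mixed guides. Symbols were paired with identifiers through GENCODE M21 (52083 of 55416 matched); tRNA synthetases were matched by their older symbols. Counts were divided by the column sum (CPM), filtered at a mean of 1 CPM, and taken as log2(CPM + 1). Correlations used exact permutation over all 362880 orders of the libraries, and the code was tested on simulated data. Alternatives used edgeR 4.0.16 (TMM) and DESeq2 1.42.0 (size factors), with Python 3.11.15, numpy 2.4.6 and scipy 1.17.1. The members, lists and roles were chosen with earlier results of these data known. Genes named in full were Atf4, Ddit3, Atf3, Fgf21, Gdf15, Trib3, Asns, Phgdh, Psat1 and Mthfd2, the 3 widest and 3 narrowest members, and the 10 highest and 3 lowest pairs. Added after seeing the data were the permutation tests of the pairs, the removal of library E with the set of pairs held fixed, the count of members highest in library E under other settings, and the leaving out of clustered members from the pairwise correlations. For p-values, libraries are the units, and their spread may be technical. Schwann cell markers summed to between 39.9 and 88.6 CPM.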

Additional observations from a re-analysis of the deposited data

Results flagged for a closer look

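In 8 of the 26 members tested, 1 library lay far from the rest, its gap to the nearest value being a large part of the whole range (Dixon's ratio above its 95% critical value for 9 libraries). About 1 gene in 20 would be flagged by chance if values followed a normal distribution. The ratio was taken on CPM without logs, where that rate need not hold. Of all 12260 genes tested, 6.68% were flagged. In 7 of the 8 the library was library E and the value was the highest. Fgf21 had a ratio of 0.794, with 18.1 CPM against 3.77 CPM in the next library. The ratio was 0.695 for Trib3 (55.3 against 19.9 CPM), 0.672 for Ppp1r15a (45.6 against 23.1 CPM) and 0.666 for Atf3 (14.96 against 5.44 CPM). Chac1 followed at 0.645 (12.8 against 4.91 CPM), Ddit3 at 0.601 (32.8 against 17.95 CPM) and Aldh18a1 at 0.544 (7.26 against 3.72 CPM). The eighth was Nupr1 at 0.589, where library C held 34.8 CPM and the next library, library E, 24.1 CPM.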

How the results depend on the processing

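No paired analysis was possible because neither replicate numbers nor guides are known for the libraries. Correlations with Ucp1 and Atf4 have no alternatives, since none was given. The Ucp1 values fell into 2 sets in all 15 settings tried, and the Atf4 values in 13. The median pairwise r of the members, 0.55, was 0.52 with either edgeR TMM or DESeq2 size factors and 0.55 with a pseudocount of 0.5. It was 0.46 (0.4556) when mitochondrial transcripts were left out of the column sum, 0.44 (0.4410) with no filter on low counts, 0.41 (0.4071) at a mean of at least 5 CPM and 0.45 (0.4500) with Spearman's rho. Leaving out each library in turn gave 0.35 (0.3537) to 0.62 (0.6218), the lowest without library E, where the gap rule was applied anew and left fewer pairs. With the 4 clustered members put back, as first planned, it was 0.59 over 325 pairs, of which 36.9% reached 0.7, against 4.71% of all pairs. That share was 31.2% without them, and 28.6% with TMM or size factors, 23.4% with Spearman's rho, 21.9% at a mean of at least 5 CPM and 15.2% to 38.1% with 1 library left out, lowest without library E. The cause of these shifts was not tested. Library E was the highest for 16 members under each of the 3 other scalings. Its share of all genes tested was 8.31% without mitochondrial transcripts, 11.0% with TMM and 11.2% with size factors. It was the highest for 9 of 19 members at a mean of at least 5 CPM, where no share of all genes was taken. The count of members with a 2-fold spread, 23, was 22 or 23 under every scaling and with any library left out. It was 27 of 30 with no filter and 16 of 19 at a mean of at least 5 CPM. The share of all genes with such a spread, 32.3%, was taken in the main setting only. Vldlr, at 2.08, fell under 2 with TMM (1.98), with size factors (1.97) and without mitochondrial transcripts (1.77), as it did without library A or F. Nupr1 fell to 1.45 without library C and Ppp1r15a to 1.90 without library E, while Cebpb rose to 2.07 without mitochondrial transcripts. Read depth limits the members under 100 reads in all, Mthfd1l, Pycr1, Slc7a11 and Aldh1l2.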

Other observations

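The Ucp1 level was 3848 CPM in library B, 4620 in library C, 2704 in library D, 3652 in library F and 3937 in library I. It was 459 CPM in library A, 396 in library E, 606 in library G and 445 in library H. On the log2(CPM + 1) scale the gap between the sets was 2.16 and the ranges within them were 0.61 and 0.77. Neither set was given a guide, and no average or test was made between them. Atf5, Asns and Mthfd2 had their widest gap between the same 2 sets of libraries, in the opposite direction, with gaps of 1.13, 0.63 and 2.35 on that scale. Of all 12260 genes tested, 0.693% fell into these 2 sets by the same rule in either direction, and 7.23% fell into any 2 sets. Other members, named above, had libraries A, E, G and H as their highest without passing the rule. Mitochondrial transcripts took 22.3% of the reads in library A, 25.8% in library E, 26.5% in library G and 24.9% in library H, and 33.8% in library B, 31.5% in library C, 33.2% in library D, 33.9% in library F and 31.8% in library I. Their part in the levels above was not tested beyond the scaling without them.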
